A study of Arabidopsis thaliana with 6 samples.

Results

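The loci described here are all plastid gene models of the deposited count tables with a length of 70 to 95 bases, except the one for petN, a small subunit of the cytochrome b6f complex. This gave 37 loci out of 133 plastid models and 33602 models in all. The rule used position and length and no measured value, but it was set with earlier results of these data known. Their lengths ran from 71 to 92 bases, no plastid model was shorter, and the next longer ones were ATCG00590 at 96 bases and ATCG00690 at 102 bases. All 37 passed the filter on low counts.

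Transfer RNAs (tRNAs) are short RNAs that carry amino acids to the ribosome, and the chloroplast genome of land plants keeps its own set of tRNA genes for translation inside the plastid. Part of that set lies in the inverted repeat, a stretch of the plastid genome present in 2 copies, so that each of those genes occurs once in either copy. Most plastid tRNA genes are transcribed by the plastid-encoded RNA polymerase, the precursors are trimmed by nuclear-encoded RNase P and RNase Z, and a CCA end is added before charging. The tRNA for glutamate also supplies the precursor of chlorophyll and haem.

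The 6 libraries of Arabidopsis thaliana form 3 groups of 2. FLV border is the white border of young rosette leaves of line salk_139995, labelled FLV mutants. WT border is the green leaf border and WT centre the leaf centre of Col-0 wild type. All plants were untreated, grown on soil and at Boyes stage 1.13, and total RNA was depleted of ribosomal RNA before stranded Ion Proton sequencing. FLV, also named DOT4, is a nuclear gene for an RNA editing protein of plastids that acts on rpoC1, a subunit gene of the plastid-encoded RNA polymerase. The mutant is represented by 1 insertion line, and nothing in the labels says that replicates came from separate plants, so the p-values reflect no more than the spread among these libraries, which may be technical.

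The depth ranged from 20448315 to 33214552 counts per library. DOT4 (AT4G18750) had 502 and 616 counts in the libraries labelled FLV border, 18 and 52 for the WT border and 5 and 6 for the WT centre. Counts over the whole gene model do not check an insertion, and group names below are those of the labels. Leaf photosynthesis markers were present in every library, with RBCS1A between 1558 and 20198 CPM (counts scaled to a common library size) with sizes set by the trimmed mean of M-values (TMM), and the flower markers AP3 and AG were at or under 0.622 CPM. The share of small RNAs differed between libraries: loci for small nucleolar and small nuclear RNAs took 9.92% and 6.07% of all counts in FLV border, 4.55% and 3.38% for the WT border and 17.1% and 2.16% for the WT centre. The first WT centre library stood apart in this respect.

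The files give locus numbers and lengths but no tRNA names. The 37 lengths were the same list as the spliced lengths of the 37 plastid tRNA genes annotated in RefSeq on assembly TAIR10.1. A length held by 1 gene of that annotation named 8 loci, and length together with copy number, read from near-equal counts, named 2 more, so 27 loci are called by number only. The named sequences are shown because these are the loci whose values can be tied to an anticodon. Each is the spliced tRNA from RefSeq, TAIR10.1, as DNA letters 5′ to 3′, with the anticodon in capitals.
trnL-UAA (ATCG00400): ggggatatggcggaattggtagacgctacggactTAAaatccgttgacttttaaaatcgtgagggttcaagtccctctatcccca
trnL-CAA (ATCG00880, ATCG01260): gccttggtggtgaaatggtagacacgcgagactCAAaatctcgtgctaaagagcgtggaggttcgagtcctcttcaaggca
trnL-UAG (ATCG01030): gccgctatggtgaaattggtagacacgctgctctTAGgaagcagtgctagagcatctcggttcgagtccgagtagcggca
trnA-UGC (ATCG00940, ATCG01190): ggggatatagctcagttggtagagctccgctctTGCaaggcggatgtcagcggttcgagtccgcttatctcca
trnS-GCU (ATCG00090): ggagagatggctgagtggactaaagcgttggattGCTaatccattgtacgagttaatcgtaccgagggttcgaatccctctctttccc
trnS-GGA (ATCG00370): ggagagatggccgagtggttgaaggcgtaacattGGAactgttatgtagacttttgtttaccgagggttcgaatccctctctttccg
trnS-UGA (ATCG00290): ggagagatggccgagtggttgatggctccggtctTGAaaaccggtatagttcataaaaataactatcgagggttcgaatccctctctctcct
trnY-GUA (ATCG00240): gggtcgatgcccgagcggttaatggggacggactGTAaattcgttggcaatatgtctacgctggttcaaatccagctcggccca

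The leucine, serine and tyrosine tRNAs are the ones with a long variable arm, which is why their lengths stand apart from the rest. trnL-UAA lies on the plus strand at positions 46894 to 47490 of the plastid genome and is split by an intron between its exons at 46894 to 46928 and 47441 to 47490. trnA-UGC also has an intron and lies in the spacer between the 16S rRNA gene (101012 to 102502) and the 23S rRNA gene (104691 to 107500), at 103665 to 104538, with its other copy at 134111 to 134984. trnS-GCU is annotated on the plus strand at 7785 to 7872, but its anticodon arm was found on the opposite strand, which is the one printed. The trnY-GUA sequence has 1 exact copy in the nuclear genome, so its reads cannot be assigned to the plastid alone. The other 23 distinct intron-free plastid tRNA sequences had no exact copy in the nuclear or mitochondrial genome.

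The glutamate tRNA has 73 bases and 1 copy, as do 4 other genes. It is therefore 1 of 5 loci (ATCG00010, ATCG00250, ATCG00390, ATCG00410 and ATCG00460), and these differed widely, from 1.45 CPM for ATCG00460 in FLV border to 2385 CPM for ATCG00010 in WT centre. The initiator trnfM-CAU is in the same way 1 of 5 loci of 74 bases, among them ATCG00230. No value is given for either tRNA.

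Among loci of equal length, 7 pairs had counts within 1.34-fold of each other in every library, and the closest other pair reached 1.68-fold. The 7 pairs equal the number of tRNA genes with 2 copies in the annotation. The pairs were found by their near-equal counts, so that equality is a description and was not tested. Reads of identical copies cannot be told apart, and the 37 loci are read as 30 distinct measurements.

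**Figure D1:**
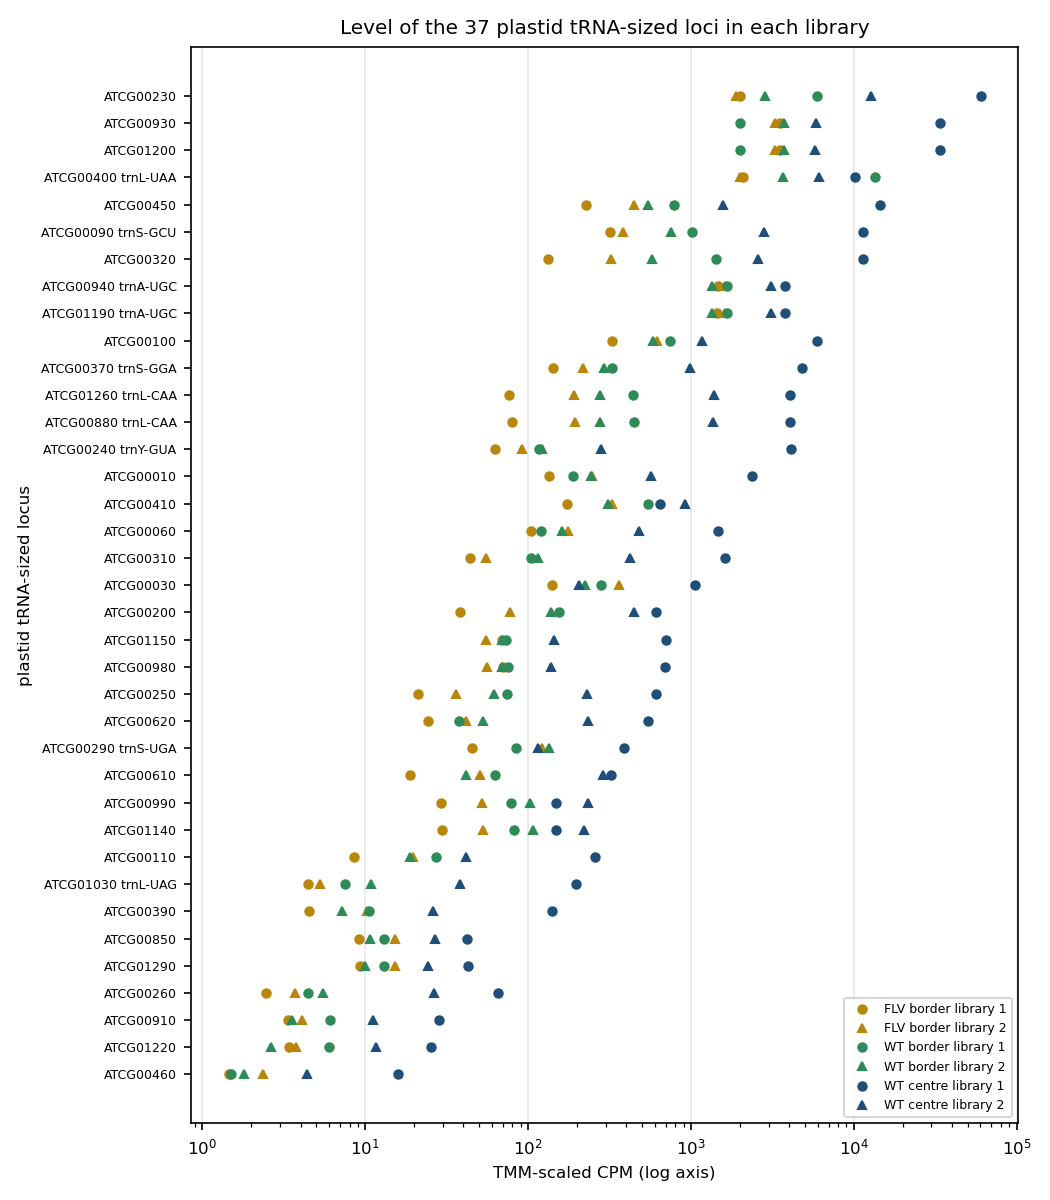
TMM-scaled CPM on a log axis for each of the 37 loci (rows, ordered by mean level) in each of the 6 libraries; colour gives the group and marker shape the library number. The first WT centre library lies farthest to the right for most loci, while trnL-UAA is highest in the first WT border library.

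Levels spanned more than 3 orders of magnitude. Per kilobase of locus, the mean over the 6 libraries ran from 62.4 CPM for ATCG00460 to 192850 CPM for ATCG00230. ATCG00230, of 74 bases, measured 2006 and 1900.1 CPM in FLV border, 5932 and 2854 CPM in WT border, and 60225 and 12709 CPM in WT centre. These 3 pairs of values did not overlap, and the first WT centre library was far above the second. The most abundant copy pair was ATCG00930 and ATCG01200, of 72 bases, whose length and copy number fit trnI-GAU, trnN-GUU or trnV-GAC. ATCG00930 had 3526 and 3288 CPM in FLV border, 2005 and 3740.0 CPM in WT border, and 33814 and 5855 CPM in WT centre. The 2 border groups overlapped for this pair.

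The named leucine tRNAs differed from each other. trnL-UAA, which reads the UUA codon, had 2082 and 2009 CPM in FLV border, 13553 and 3694 CPM in WT border, and 10213 and 6127 CPM in WT centre. Its highest value was thus in a border library, the first WT border library. For trnL-CAA, which reads UUG, ATCG00880 had 79.1 and 193 CPM in FLV border, 447 and 276 CPM in WT border, and 4038 and 1360 CPM in WT centre. trnL-UAG, which reads the CUN codons, was far scarcer, with 4.43 and 5.26 CPM in FLV border, 7.54 and 10.8 CPM in WT border, and 197 and 38.2 CPM in WT centre. Both trnL-CAA and trnL-UAG were ordered FLV border, WT border, WT centre without overlap.

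The serine tRNAs also spanned a wide range. trnS-GCU had 316 and 381 CPM in FLV border, 1008 and 754 CPM in WT border, and 11362 and 2800.4 CPM in WT centre. trnS-GGA had 142 and 219, 325 and 294, and 4787 and 982 CPM in the same order of groups. trnS-UGA had 45.4 and 121, 83.9 and 134, and 389 and 115 CPM, and its groups overlapped. trnY-GUA had 62.6 and 92.3 CPM in FLV border, 117 and 122 CPM in WT border, and 4125 and 280.0 CPM in WT centre, so its mean in WT centre rests on the first library.

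Taken as 1 pool, the 37 loci held 21.9% and 12.8% of the plastid counts in FLV border (mean 17.3% ± 6.40, SD, n = 2). They held 17.3% and 7.98% in WT border (12.6% ± 6.57, n = 2) and 28.7% and 6.12% in WT centre (17.4% ± 15.9, n = 2). In every group the first library was the higher one, and the groups overlapped. Between libraries of the same number, FLV border was above WT border both times. WT border was below WT centre in the first libraries and above it in the second. The tests that follow did not pair libraries by number. Exact two-sided permutation tests over libraries gave p = 0.667 for FLV border against WT border and p = 1 for WT border against WT centre, where 0.333 is the smallest p that 2 against 2 libraries allow. The exact 95% binomial intervals were narrow, for example 6.11% to 6.13% for the second WT centre library, but they cover counting error only. All plastid loci together took 12.8% and 24.2% of all counts in FLV border, 24.2% and 31.4% for the WT border and 41.9% and 38.5% for the WT centre. In such bulk samples, fewer green cells and less plastid RNA per cell cannot be told apart.

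**Figure D2:**
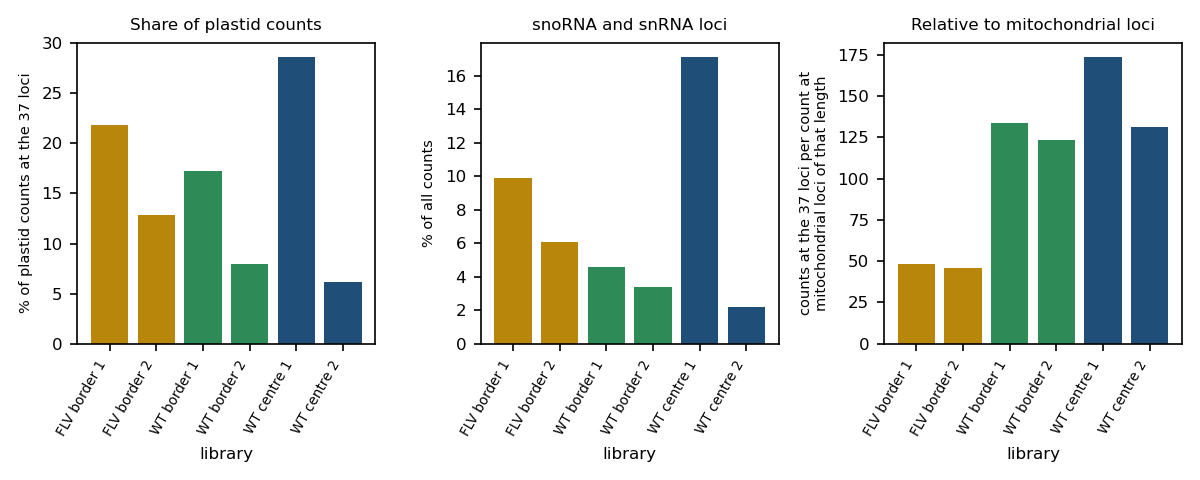
Bars give 1 value per library, coloured by group: the percentage of plastid counts at the 37 loci, the percentage of all counts at nuclear loci for small nucleolar and small nuclear RNAs, and the counts at the 37 loci per count at mitochondrial loci of the same length range. The first WT centre library is highest in all panels, at 28.7%, 17.1% and 174, and both FLV border libraries are lowest in the last panel, at 48.0 and 46.0.

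Because the share of small RNAs differed between libraries, the 37 loci were also set against other loci of that size. There were 17 mitochondrial models of 70 to 95 bases. Per count at these, the plastid loci had 48.0 and 46.0 counts in FLV border, 134 and 123 for the WT border and 174 and 131 for the WT centre. Both FLV border libraries were lower than all wild-type libraries, and within FLV border the values nearly coincided (exact permutation p = 0.333 against WT border, the smallest possible; p = 0.667 for WT border against WT centre). The denominator was itself higher in FLV border than in WT border: these mitochondrial loci took 0.0584% and 0.0675% of all counts there, 0.0312% and 0.0203% of those from the WT border and 0.0691% and 0.0180% of those from the WT centre. The 37 plastid loci took 2.80% and 3.11%, 4.17% and 2.51%, and 12.01% and 2.35% of all counts in the same order, with overlap between the groups. Mitochondrial loci ATMG00330 and ATMG00780 held 52.7% to 84.1% of the mitochondrial counts in question. With ATMG00330 and ATMG00780 left out, the ratio was 210 and 290.0 in FLV border, 385 and 372 for the WT border and 367 and 298 for the WT centre, so that FLV border was still the lowest group and WT border the highest (exact permutation p = 0.333 for both comparisons). Per count at the 623 nuclear tRNA models, the plastid loci had 49.4 and 55.1 counts in FLV border, 115 and 77.3 for the WT border and 59.7 and 66.8 for the WT centre. By this ratio FLV border was lowest and WT border highest without overlap (exact permutation p = 0.333 for both comparisons). This denominator, too, differed: nuclear tRNA models took 0.0567% and 0.0564% of all FLV border counts. The WT border libraries had only 0.0363% and 0.0324%, and the WT centre libraries 0.201% and 0.0353%. With the plastid loci's own share of all counts overlapping between the groups, neither ratio by itself shows fewer counts at these loci.

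The make-up of the pool was uneven. A handful of loci, namely ATCG00230, trnL-UAA, ATCG00320, trnS-GCU, the pair ATCG00930 and ATCG01200 and the trnA-UGC pair, supplied most of it. The pair ATCG00930 and ATCG01200 gave 43.0% and 36.6% of the pool in FLV border, 11.7% and 33.9% for the WT border and 31.0% and 21.7% for the WT centre. The trnA-UGC pair gave 17.7% and 17.9% in FLV border, 9.70% and 12.2% for the WT border and 3.47% and 11.6% for the WT centre. Both pairs had their highest shares in FLV border (exact permutation p = 0.333 against WT border for each, the smallest possible). In contrast, trnL-UAA gave 12.7% and 11.2% in FLV border against 39.7% and 16.8% for the WT border and 4.68% and 11.4% in WT centre.

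**Figure D3:**
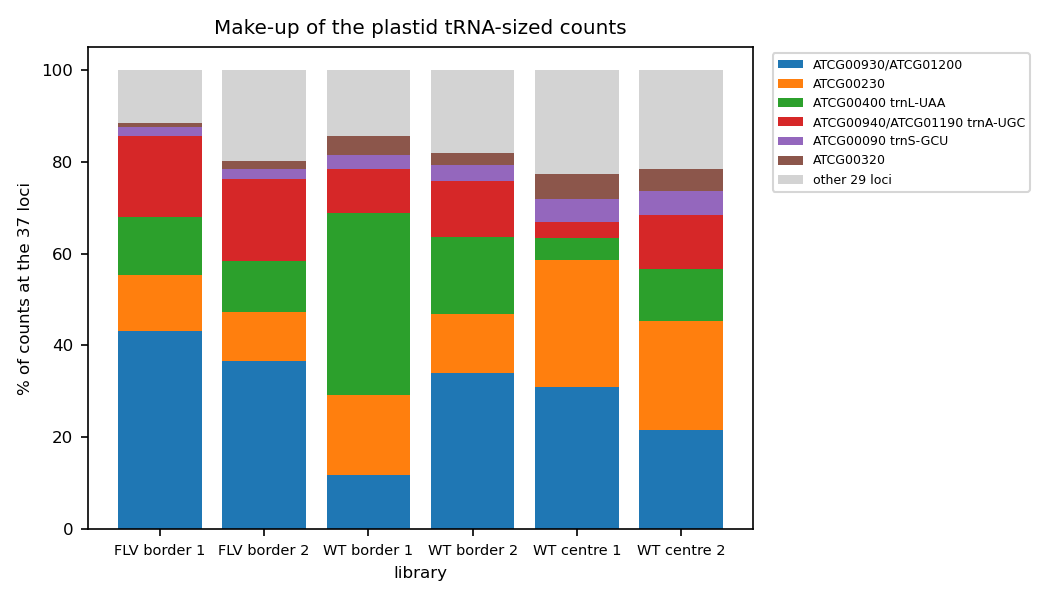
Stacked bars give, for each library, the percentage of the counts at the 37 loci that fell on each of 6 features (8 loci, copies summed) and on the other 29 loci. trnL-UAA takes 39.7% in the first WT border library and 4.68% in the first WT centre library, and the trnA-UGC pair takes 17.7% and 17.9% in FLV border.

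All 7 inverted repeat pairs together made up 63.1% and 58.1% of the pool in FLV border (60.6% ± 3.51, n = 2), 25.1% and 50.3% in WT border (37.7% ± 17.8, n = 2), and 39.0% and 39.9% in WT centre (39.5% ± 0.584, n = 2). Both FLV border values lay above all 4 wild-type values. The exact permutation p was 0.333 against WT border and 1 for WT border against WT centre. Without ATCG00930 and ATCG01200, the remaining pairs made up 35.2% and 33.9%, 15.1% and 24.8%, and 11.6% and 23.2% of the rest in the same order of groups. Most of the FLV border remainder was the trnA-UGC pair. The trnL-CAA pair went the other way: its FLV border shares of the pool, 0.946% and 2.14%, lay below every wild-type share (2.50% to 5.10%). Each other pair stayed under 1% of the pool in every library. The higher total in FLV border therefore came from ATCG00930 with ATCG01200 and from trnA-UGC, and was not shared by all pairs. Some features without a pair had their lowest shares in FLV border (exact permutation p = 0.333 against WT border for both given here). ATCG00230 made up 12.2% and 10.6% in FLV border, 17.4% and 13.0% for the WT border and 27.6% and 23.7% for the WT centre, and trnS-GCU 1.93% and 2.12%, 2.95% and 3.42%, and 5.21% and 5.22%. These shares do not depend on how libraries are scaled against each other, but a rise of one feature lowers the others.

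The first comparison, FLV border over WT border, addresses what the mutant's white margin changes relative to the same leaf zone of wild type. None of the 37 loci passed an adjusted p of 0.05 in edgeR's quasi-likelihood test, in a comparison where 0.0595% of all genes tested did, 0.0549% higher and 0.00458% lower. DESeq2 also called 0 of the 37 loci (0.888% of all genes, with 0.339% of all genes lower). At an unadjusted p under 0.05 in edgeR there were 4 loci, or 3 of 30 features with copies summed, against 5.53% of all genes. The fold change was negative for 30 of 37 loci, or 26 of 30 features with copies summed (48.4% of all genes). The median was −0.58 on the log2 scale (−0.66 with copies summed), with a range of −2.14 to 0.25. The median's sign followed the scaling: with plastid counts as library size it was 0.53, where the median of all genes was 1.25. The median of the 37 loci minus that of all genes was −0.60, and it lay between −1.0 and −0.36 under 19 alternatives. Minus that of the nuclear tRNA loci it was −0.90, between −1.30 and −0.53. Minus that of the other plastid loci it was −0.27, between −0.55 and 0.04, and it was above 0 without the second FLV border library (0.02) and without the first WT border library (0.04). All genes tested had a median of 0.02, the other plastid loci −0.31 and the 165 nuclear tRNA loci that passed the filter 0.32. Mitochondrial loci of this length had −0.10, and small nucleolar and small nuclear RNA loci 0.51. Groups were lower without overlap at 17 loci and higher at 0 (18.7% and 19.3% of all genes), and 5 of the 17 were in the copy pairs.

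The 4 loci with the smallest p-values among those lower in FLV border were ATCG00200, trnL-UAA, ATCG01140 and ATCG00320. ATCG00200, of 71 bases and thus trnC-GCA or trnG-GCC by length, measured 38.2 and 77.6 CPM in FLV border against 155 and 137 CPM in WT border, a log2 fold change of −1.33 ± 0.55 (SE, adjusted p = 0.869, edgeR). trnL-UAA differed by −2.08 ± 0.86 (adjusted p = 0.878), a value that was −0.85 without the first WT border library. ATCG00320 had 132 and 321 CPM against 1418 and 575 CPM, a difference of −2.14 ± 0.94 (adjusted p = 0.897) that was −1.35 without the first WT border library and −2.92 without the second FLV border library. For ATCG01140, with 29.6 and 52.6 against 81.7 and 107 CPM, the difference was −1.20 ± 0.51 (adjusted p = 0.878). With 1 library left out, ATCG00200 ranged from −1.93 without the second FLV border library to −0.92 without the first, and ATCG01140 from −1.67 to −0.85 without the same libraries. All 4 were lower in both FLV border libraries than in either WT border library, and none passed the test.

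The positive values were small. The largest belonged to ATCG00930 and ATCG01200, at 0.25 ± 0.93 and 0.25 ± 0.94, and ATCG00460 and ATCG01290 had 0.21 ± 0.66 and 0.09 ± 0.48 (adjusted p = 0.9999 for each in edgeR). Each of these signs turned under some scaling or left-out library. trnA-UGC was nearly level, with 1459 and 1613 CPM in FLV border against 1656 and 1339 CPM in WT border for ATCG00940 (0.04 ± 0.62). The 14 loci of the inverted repeat pairs, which are 7 distinct measurements, had a median of −0.20 with 8 negative values. The 23 loci without a pair had a median of −0.71 with 22 negative values. The difference between these classes was not tested. The photosynthesis markers RBCS1A, CAB1 and RCA moved alongside, with a summed level of 4307 and 8910.0 CPM in FLV border against 19118 and 26999 CPM in WT border and 0 of 3 called, and their part in these differences was not tested.

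**Figure D4:**
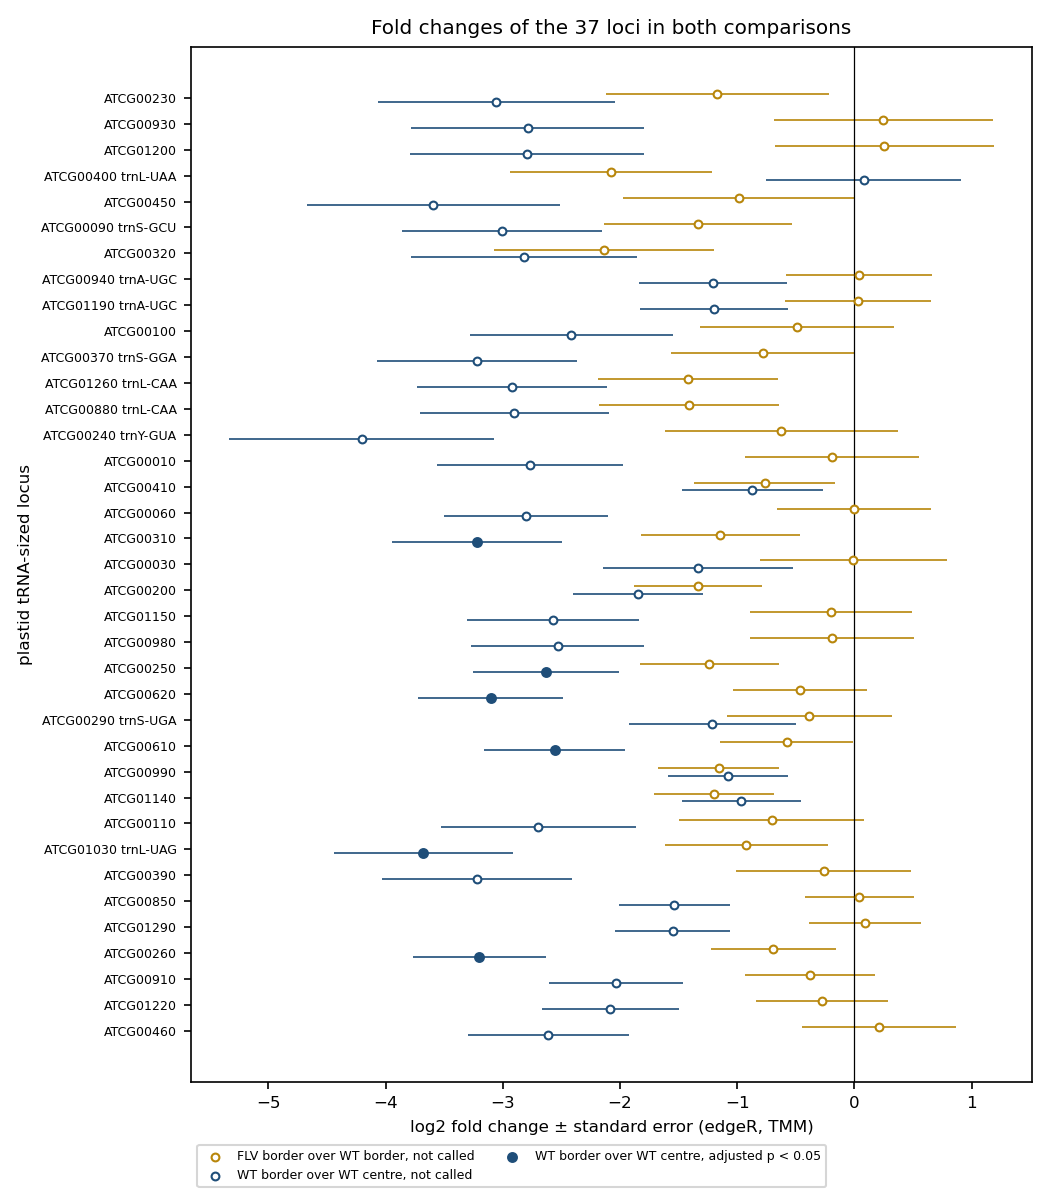
Points give the log2 fold change of each of the 37 loci with its standard error (edgeR, TMM) for FLV border over WT border and for WT border over WT centre; filled points passed an adjusted p of 0.05. The 6 filled points all belong to WT border over WT centre and lie between −3.68 and −2.56, and trnL-UAA is the single locus above 0 in that comparison, at 0.08 (−1.07 without the first WT border library).

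The second comparison, WT border over WT centre, addresses the difference between leaf zones within wild type. Here 6 of the 37 loci fell, and 0 rose, at an adjusted p under 0.05 in edgeR, in a comparison where 6.13% of all genes changed and 3% fell. They were ATCG00260 (−3.20 ± 0.57, adjusted p = 0.0303), ATCG00620 (−3.10 ± 0.62, 0.0364), trnL-UAG (−3.68 ± 0.76, 0.0377), ATCG00310 (−3.22 ± 0.73, 0.0426), ATCG00250 (−2.63 ± 0.62, 0.045) and ATCG00610 (−2.56 ± 0.60, 0.045). All 6 were negative under each of the 19 alternatives, and each was called under 7 to 12 of them. Without the first WT centre library the values, in the order given, were −2.34, −2.31, −1.998, −1.89, −1.71 and −2.41, and ATCG00250 and ATCG00610 were no longer called. None of them is among the abundant loci. ATCG00260 had 4.47 and 5.53 CPM in WT border against 65.7 and 26.4 CPM in WT centre. ATCG00610 had 62.3 and 41.6 CPM against 325 and 286 CPM, and was the one of the 6 whose 2 WT centre libraries were closest.

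Of all 37 loci, 36 had a negative value, or 29 of 30 features with copies summed (50.3% of all genes). Of the 37, 34 were lower without overlap (27.2% of all genes), 14 of them in the copy pairs. An unadjusted p under 0.05 in edgeR was found for 29 loci, or 24 of 30 features with copies summed (29.9% of all genes). The median was −2.63 on the log2 scale, against −0.02 for all genes and −1.03 for the other plastid loci. The 165 nuclear tRNA loci that passed the filter had a median of −2.61. Mitochondrial loci of this length had −1.73, and small nucleolar and small nuclear RNA loci −2.01. The median of the plastid loci minus that of the nuclear tRNA loci was −0.01, between −0.62 and 0.35 under 19 alternatives. The −0.62 was without the filter, where 609 nuclear tRNA loci had a median of −1.71 and the plastid loci −2.33. Minus that of all genes the median of the plastid loci was −2.61, between −3.34 and −0.35. With the nuclear and mitochondrial tRNA-sized loci as library size, the median of the 37 loci was −0.0014, 19 of them were negative and 0 were called. The part of small RNA capture in these calls was not tested.

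The 2 WT centre libraries differed by more than any other pair: 34 of the 37 loci were higher in the first, with a median log2 ratio of 1.76, against 24 of 37 and 0.27 in WT border. In FLV border 31 loci were higher in the second library, with a median log2 ratio of the first to the second of −0.74. Without the first WT centre library the median of WT border over WT centre was −1.30, and without the second it was −3.21. All genes had a median of 0.12 in both fits. Without the first and second WT border library the median of the loci was −2.52 and −2.41 (all genes −0.08 in both). Without the first and second FLV border library it was −2.56 and −2.57 (all genes −0.03 and −0.02). Each of these fits leaves 1 library in a group. DESeq2 called 31 loci, all lower (11% of all genes were called lower).

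trnL-UAA was the exception, at 0.08 ± 0.83 (adjusted p = 0.957, edgeR), and its sign turned without the first WT border library (−1.07) or without the second WT centre library (−0.15). The smallest other differences were −0.87 ± 0.60 for ATCG00410 and −0.96 ± 0.51 for ATCG01140, followed by −1.08 for its copy ATCG00990. trnA-UGC differed by −1.21 ± 0.63 at ATCG00940 (adjusted p = 0.229). At the other end stood trnY-GUA (ATCG00240) with −4.20 ± 1.13 (adjusted p = 0.0582), which was −1.17 without the first WT centre library. The most abundant loci did not pass the test: ATCG00230 differed by −3.05 ± 1.01 (adjusted p = 0.0906), ATCG00930 by −2.79 ± 0.997 (0.107), ATCG00450 by −3.59 ± 1.08 (0.0734) and trnS-GCU by −3.01 ± 0.85 (0.0652). Without the first WT centre library these 4 values were −1.47, −0.97, −1.18 and −1.61, and without the second they were −3.69, −3.47, −4.35 and −3.60.

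The 40 nuclear genes listed for charging, processing, transcription and use of plastid tRNAs were all tested. In FLV border over WT border, 0 of 40 were called by edgeR (0.0595% of all genes) and 0 by DESeq2 (0.888%). An unadjusted p under 0.05 in edgeR was found for 0 of the 40 and for 5.53% of all genes. The median was −0.23. SIG2, a sigma factor of the plastid-encoded polymerase needed for several plastid tRNA genes, measured 12.7 and 26.2 CPM in FLV border against 37.2 and 35.1 CPM in WT border (−0.89 ± 0.47, adjusted p = 0.977). HEMA1, the glutamyl-tRNA reductase that opens chlorophyll synthesis, had 56.5 and 129 CPM against 106 and 318 CPM (−1.19 ± 0.71, adjusted p = 0.9999), and its groups overlapped. EMB1030, an alanyl-tRNA synthetase, had 42.1 and 54.4 CPM against 24.1 and 33.7 CPM (0.74 ± 0.43, adjusted p = 0.9999).

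In WT border over WT centre, 9 of the 40 rose and 0 fell, where 3.13% of all genes rose, and the median of the list was 1.71. Among processing genes, PRORP1, the protein-only RNase P of organelles, rose by 3.33 ± 0.51 on the log2 scale (adjusted p = 0.0282), from 1.87 and 2.47 CPM in WT centre to 19.8 and 24.2 CPM in WT border. CPZ, an RNase Z of chloroplasts, rose by 2.42 ± 0.51 (0.038) and emb2746, the RNase J, by 2.71 ± 0.49 (0.0312). SIG2 rose by 3.02 ± 0.51 (0.0303). Among the 22 charging genes 5 rose, namely the organellar synthetases OVA1, OVA5, OVA6, NS1 and EDD1, by 1.85 to 2.67. None of the 4 genes of glutamyl-tRNA use passed the test.

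Epidermal markers moved with this comparison: both ATML1 and PDF1 rose, and their summed level was 108 and 75.9 CPM in WT border against 4.71 and 8.79 CPM in WT centre. The xylem markers IRX3 and IRX1 had summed levels of 10.4 and 12.9 against 4.18 and 1.65 CPM, with 0 of 2 called. The phloem markers SUC2 and APL had 93.9 and 187 against 87.7 and 176 CPM. The photosynthesis markers had 19118 and 26999 against 27793 and 90584 CPM, also with 0 called. Of these, RBCS1A was higher in both WT centre libraries, at 7325 and 8062 against 18365 and 20198 CPM. The groups overlapped for CAB1 (9289 and 15970 against 7101 and 66396 CPM) and RCA (2504 and 2967 against 2327 and 3990 CPM). The part of tissue make-up in the differences was not tested. For the 40 nuclear genes, the median of WT border over WT centre was 1.98 and 1.54 without the first and second WT border library. It was 1.78 and 1.77 without the first and second FLV border library. Each of these fits leaves 1 library in a group.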

How the data were processed

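Per the labels' protocols, Trizol-extracted RNA was depleted of rRNA and made into stranded single-end libraries. The deposited values are raw counts per gene model, 1 table per library, written by sam2pkm per the file headers, with TAIR 10 as build per the submitters' processing notes. The aligner, strand use and treatment of multiply mapped reads are not given in the sources used here. Counts do not separate mature tRNAs from precursors.

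Counts at 14 rRNA loci, 8 of them plastid, were left out. filterByExpr kept 21852 genes, 125 of them plastid. edgeR 4.0.16 (R 4.3.3) was fitted to all 6 libraries with TMM and 1 mean per group (robust quasi-likelihood, 3 residual degrees of freedom, common biological coefficient of variation 0.456). Benjamini-Hochberg adjustment of its two-sided p-values covered every gene in the model, and log2 fold changes carry standard errors. CPM values are TMM-scaled. The edgeR procedure was also run on simulated counts with changes set in FLV border only. These counts held no difference in small RNA capture between libraries, so they do not show how the procedure handles one. DESeq2 1.42.0, other library sizes, no filter, a length correction, the replicate number as a block, and each library left out in turn were alternatives. Deviations of same-numbered libraries correlated at 0.367 between FLV border and WT border, and at 0.0472 and 0.0817 in the pairs with WT centre. The main model had no block because the correlation was low in those pairs. Some shares did follow the library number. The loci's share of plastid counts and the share of small nucleolar and small nuclear RNAs were higher in the first library of every group. Scaled levels of the loci did not follow it, being mostly higher in the second FLV border library.

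Named loci were the 6 highest by mean CPM, every called locus or else the 4 with the smallest p in each direction, those named by length, and loci at the length limits. The members and lists were chosen with earlier results of these data known. Loci at the ends of each range, and those outside the rule used for a description, were chosen after their values were seen. Anticodons were located as an arm of 5 paired positions, at least 4 paired, around a loop of 7 bases, and were found in 35 of 37 genes.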

Additional observations from a re-analysis of the deposited data

How the results depend on the processing

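In FLV border over WT border, 0 of the 37 loci and 0 of the 40 nuclear genes were called under any alternative that kept 2 libraries per group. Under these, the number of all genes called ran from 0 with the replicate block to 558 with plastid counts as library size. The median of the 37 loci, −0.58, was −0.042 with library totals, 0.53 with plastid counts and −1.04 with other tRNA loci as library size, and 0.10 with the loci's own total, an alternative chosen after seeing the data. It was −1.02 to −0.38 with 1 library left out. The all-gene median shifted to 0.56, 1.25, −0.44 and 0.66 under these 4 library sizes. In WT border over WT centre, the 6 called loci became 2 with plastid counts, 0 with other tRNA loci and 0 with the loci's own total as library size, 10 without a filter, 1 with only the 4 libraries compared, 0 with a length correction, 31 with DESeq2, and 0 to 29 with 1 library left out. The median, −2.63, was −1.45 with library totals, −0.87 with plastid counts, −0.0014 with other tRNA loci, −0.24 with the own total and −0.42 with the length correction (all-gene medians 1.24, 1.80, 2.001, 1.73 and −0.07), and −3.21 to −1.30 with 1 library left out. The 9 called nuclear genes became 35 with library totals, 39 with plastid counts, 33 with other tRNA loci, 28 with the own total, 20 without a filter, 3 with only the 4 libraries, 3 with the length correction, 22 with DESeq2 and 0 to 13 with 1 library left out. Of the 22 nuclear genes called with DESeq2, 21 were higher and 1 was lower. The number of all genes called higher in WT border over WT centre also grew, from 683 of 21852 in the main fit. It was 7448 with library totals, 10162 with plastid counts, 7095 with other tRNA loci and 3545 with the own total. The replicate number as a block left 0 loci called in FLV border over WT border and 2 in WT border over WT centre (all genes 0 and 1080). The cause of these changes was not tested.

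Single values also changed sign. In FLV border over WT border, with other tRNA loci as library size and then with the length correction, ATCG00930 was −0.25 and −0.035, ATCG01200 −0.24 and −0.027, ATCG00460 −0.27 and −0.054, and ATCG01290 −0.37 and −0.17, and ATCG00450 was 0.057 with plastid counts. With 1 library left out ATCG00930 ranged from −0.14 to 0.75, ATCG01200 from −0.13 to 0.75, ATCG00460 from −0.18 to 0.51 and ATCG01290 from −0.31 to 0.39. In WT border over WT centre, trnL-UAA was −0.0097 with only the 4 libraries, −0.079 with the replicate block, and −1.07 to 0.82 with 1 library left out, and ATCG01200 was 0.0010 with other tRNA loci. Leaving out the 2 abundant mitochondrial loci put the counts per mitochondrial count on another scale. Their mean went from 47.0 to 250 in FLV border, from 129 to 378 in WT border and from 152.5 to 333 in WT centre. The difference went from −81.6 to −129 for FLV border minus WT border and from −23.9 to 45.8 for WT border minus WT centre. The difference in share of plastid counts, 4.71 percentage points for FLV border minus WT border, was −1.74 without the inverted repeat copies and −0.39 as a share of all counts, and for WT border minus WT centre, −4.76, it was 6.51 without the first WT centre library. The differences in share of plastid counts moved by less than the spread between libraries, 9.17 and 17.2 percentage points in the 2 comparisons. The share of all counts is on another scale and cannot be set against that spread. For the same reason, the change in the differences in counts per mitochondrial count cannot be set against their spread between libraries.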
